A study of Mus musculus with 3 samples.

Results

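The 2 plasminogen activators Plau and Plat, the activator receptor Plaur and the serpin inhibitors Serpinb2 and Serpine2 were followed in mouse fibroblasts during and after inhibition of DNA methylation. The genes were taken by symbol through the array's probe annotation, and were picked with their levels in these samples already known, so their levels and differences are a description and carry no test. Of the 5 genes, 4 had probes (6 probes in all) among 19057 measured genes, and all 4 were detected (detection p-value below 0.01 in at least 1 group), as were 8982 of all genes. Serpine2 had no probe listed in the annotation used and was not analysed here.

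NIH/3T3, an established mouse fibroblast line, was profiled on Illumina bead arrays as total RNA in 3 groups. Mock cells had the mock treatment. A second group was exposed for 3 days to 5aza-dC at 1 uM, with fresh drug each day. This compound, decitabine, is incorporated into DNA and traps DNA methyltransferases. Recovery cells had the same exposure and then 14 days without the drug. The labels give 1 mock group and none with the further 14 days. In differences of recovery from the other groups, the earlier drug and the further time in culture therefore cannot be told apart. The deposited tables hold 1 column of probe intensity per group, and each column proved to be the mean of 2 arrays, which were computed back from the 2 deposited tables. The labels do not say whether the 2 arrays are the duplicate experiments of the study design or repeat measurements of 1 RNA, so their spread may be technical. The number of arrays limits the precision. Median signal was 61.1 to 63.8 and 14070 to 15105 of 45281 probes were detected per group. Of 10 fibroblast markers 8 were detected in each group, and none of the 6 measured macrophage markers was detected in any.

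Plasminogen is a circulating zymogen that the activators uPA (encoded by Plau) and tPA (Plat) cleave to plasmin, a protease that digests fibrin and parts of the extracellular matrix. uPA acts mainly at the cell surface, where the lipid-anchored receptor uPAR (Plaur) holds it, whereas tPA is best known for dissolving fibrin. Serpins such as PAI-2 (Serpinb2) and protease nexin-1 (Serpine2) inhibit these enzymes by forming a covalent complex with them. In fibroblasts the system is known for its part in wound repair and cell migration.

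The activator Plau, its receptor Plaur and the inhibitor Serpinb2 were all lower than mock both in 5aza-dC and in recovery, while the other activator, Plat, was higher than mock in 5aza-dC and lower in recovery. Levels below are log2 normalized intensities with an offset of 16 added before the log2, which pulls low levels together and so understates differences of dim genes. A difference counts as at least 2-fold where the levels of the deposited columns differ by 1.0 or more on the log2 scale and the brighter group detected the gene. In either direction 2 of the 4 genes were at least 2-fold from mock in 5aza-dC, 2 of 4 in recovery, and 1 of 4 differed so between recovery and 5aza-dC, against 9.32%, 3.24% and 5.24% of all detected genes. By that rule 2 of the 4 genes were lower in 5aza-dC than in mock, against a background of 2.77%, and none was higher, against 6.55%. In recovery against mock 2 of 4 were lower (background 1.55%), and in recovery against 5aza-dC 1 of 4 was lower (background 4.35%). None of the 4 was higher in either of these comparisons, against backgrounds of 1.69% and 0.891%. Since the genes were chosen on these contrasts, nothing is read from the shares. Both comparisons against mock use the same mock column. The median difference of the 4 genes was -1.21 in 5aza-dC and -1.23 in recovery, both against mock, where the medians of all detected genes were 0.01 and 0.03.

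**Figure D1:**
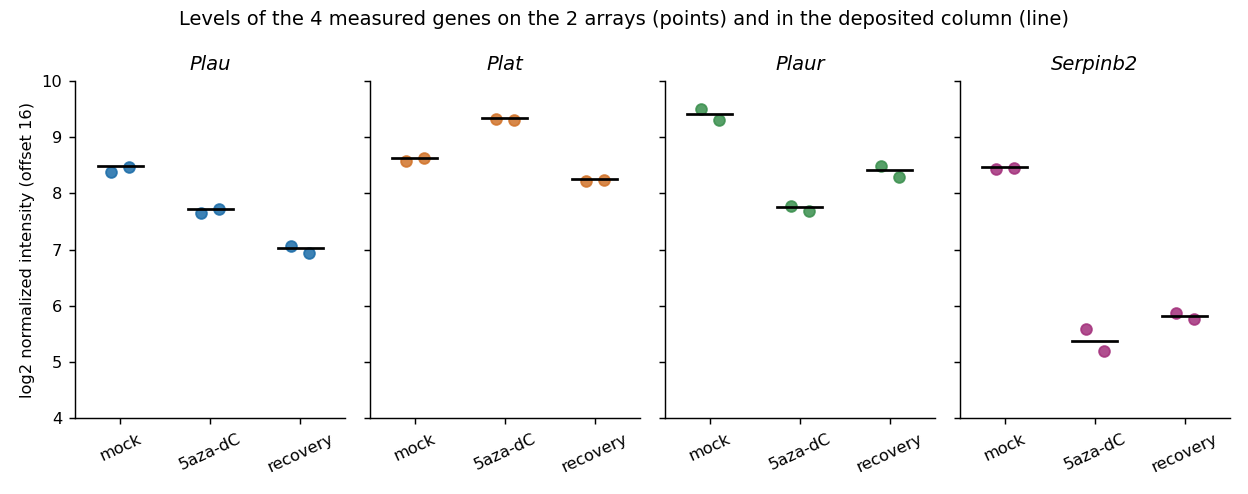
Log2 normalized intensity (vertical axis, offset 16) of Plau, Plat, Plaur and Serpinb2 in mock, 5aza-dC and recovery. Points are the 2 arrays of a group and the black line is the level of the deposited column. For each gene the pairs of arrays of the 3 groups occupy separate ranges, and the closest pairs are those of Serpinb2 in 5aza-dC (5.20 and 5.59) and recovery (5.76 and 5.87).

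Plau, which codes for the urokinase-type activator, declined step by step across the 3 groups. Its 1 probe gave deposited signals of 464.2 in mock, 252.0 under 5aza-dC and 156.2 in recovery. The levels on the 2 arrays were 8.39 and 8.48 in mock, 7.65 and 7.73 in 5aza-dC, and 7.07 and 6.95 in recovery. No array of one group overlapped those of another, and the largest gap within a pair was 0.12. The deposited columns differed by -0.76 between 5aza-dC and mock, with -0.83 to -0.66 over the 4 pairings of single arrays. Between recovery and mock the difference was -1.46 (-1.53 to -1.32 over the pairings), a 2.74-fold lower level. Recovery lay a further 0.70 below 5aza-dC (-0.78 to -0.58 over the pairings of recovery minus 5aza-dC). Plau was thus lowest in the recovery group, and 25 of the 8982 detected genes ranked below it in the comparison of recovery with mock.

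Plat, which codes for the tissue-type activator, followed a different course. The probe ILMN_2775937 gave signals of 513.8 in mock, 681.1 under 5aza-dC and 307.6 in recovery. On the arrays the levels were 8.58 and 8.63 in mock, 9.32 and 9.30 in 5aza-dC, and 8.22 and 8.23 in recovery. The groups again occupied separate ranges, with gaps within a pair of at most 0.05. The deposited columns put Plat 0.70 higher in 5aza-dC than in mock (0.67 to 0.74 over the array pairings), a 1.62-fold difference. In recovery it was lower than mock by a difference of -0.39 (-0.42 to -0.35), or 1.31-fold. The difference of -1.09 between recovery and 5aza-dC (-1.10 to -1.07) reached 2-fold, the only one of Plat to do so.

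Both further probes annotated to Plat were near background in all 3 groups. ILMN_1232110 read 57.5 in mock, 56.9 under 5aza-dC and 58.7 in recovery, with detection p-values of 0.55 to 0.79. In the same order ILMN_3003008 read 68.1, 59.3 and 65.4, with detection p-values of 0.072 to 0.456. ILMN_3003008 is annotated to the same RefSeq transcript as ILMN_2775937, and ILMN_1232110 to another sequence. The Plat results therefore rest on 1 probe, and averaging the 3 probes on the log2 scale brought the difference between recovery and 5aza-dC to -0.26.

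Plaur codes for the urokinase receptor. Of the measured members, it and Serpinb2 alone had a promoter entry. Their CpG dinucleotides were counted because the drug acts on methylation of these. The sequence before the transcription start of Plaur is shown first. The 250 bases upstream of its start in RefSeq (mouse build GRCm38.p6, chr7:24462233-24462482, plus strand) read as follows, with capitals marking matches to TGANTCA and GGGCGG:
Plaur: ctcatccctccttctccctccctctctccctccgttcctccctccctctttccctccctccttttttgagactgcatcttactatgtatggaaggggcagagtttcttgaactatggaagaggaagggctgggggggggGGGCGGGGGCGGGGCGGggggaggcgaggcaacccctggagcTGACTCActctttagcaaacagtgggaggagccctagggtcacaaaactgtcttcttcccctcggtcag
This window holds 6 CpG dinucleotides, which is also the median of 32851 RefSeq promoter windows of that length. The motif TGANTCA, the letters of a site for AP-1 (Fos and Jun) factors, was found at positions -69 to -63 counted from the start, and 6.75% of all windows hold it. Searched on both strands, GGGCGG (a GC box) was found 3 times between -111 and -95, the last pair sharing a base, and 32.7% of all windows hold it. The window holds neither TGACGTCA (the letters of a CRE, in 1.55% of all windows) nor GGAAGT (an ETS factor core, in 19.7%).

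The receptor's probe gave signals of 849.2 in mock, 255.5 under 5aza-dC and 337.8 in recovery. The array levels were 9.50 and 9.31 in mock, 7.77 and 7.68 in 5aza-dC, and 8.49 and 8.29 in recovery. All mock arrays lay above all others, and recovery lay between mock and 5aza-dC. Against mock the deposited columns differed by -1.66 in 5aza-dC (-1.82 to -1.54 over the array pairings), a 3.16-fold lower level. In recovery the difference from mock was -0.99 (-1.21 to -0.82), a 1.99-fold lower level that stood just short of the 2-fold limit. Scaled to the median of all probes, that difference was -1.39, and in the authors' background-subtracted table it was -1.09, both past the limit. With an offset of 50 it was -0.93 and without background correction -0.91, both short of it. Recovery was 0.67 above 5aza-dC (0.52 to 0.81).

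Serpinb2, which codes for the inhibitor PAI-2, had the widest range of the 4 genes. Its promoter is shown for comparison with that of the receptor. The table lists 2 starts for this gene, and the 250 bases before the first (GRCm38.p6, chr1:107511173-107511422, plus strand) read as follows, with capitals marking matches to TGANTCA and TATAAA:
Serpinb2: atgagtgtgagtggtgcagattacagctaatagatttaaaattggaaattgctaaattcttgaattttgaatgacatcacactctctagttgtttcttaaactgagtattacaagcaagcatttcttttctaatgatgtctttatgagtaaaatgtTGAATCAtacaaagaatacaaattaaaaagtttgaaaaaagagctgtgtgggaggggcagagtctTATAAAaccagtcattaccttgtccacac
No CpG dinucleotide is in this window, as in 7.87% of all windows, and 32.4% of its bases are G or C, against 59.6% for Plaur. The window before the second start, chr1:107511260-107511509, overlaps the first and holds 3 CpG dinucleotides, and 37.8% of all windows have as few. TGANTCA was matched at -94 to -88 and TATAAA, the letters of a TATA box, at -29 to -24 of the first start, and 12.4% of all windows hold the latter. Neither window holds the letters of the GC box, the CRE or the ETS core. Letters in a sequence do not show binding or methylation, which were not measured here. Plau and Plat had no entry in the promoter table.

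The Serpinb2 probe gave signals of 462.9 in mock, 86.7 under 5aza-dC and 93.1 in recovery, with detection p-values of 0 in all 3 groups. Its levels on the arrays were 8.43 and 8.45 in mock, 5.59 and 5.20 in 5aza-dC, and 5.87 and 5.76 in recovery. Both mock arrays lay far above the other 4, while 5aza-dC and recovery were close to each other. The deposited columns differed by -3.09 between 5aza-dC and mock (-3.26 to -2.84 over the array pairings), or 8.53-fold. Among the 8982 detected genes, 1 had a lower value in this comparison. Between recovery and mock the difference was -2.65 (-2.69 to -2.56), or 6.28-fold, and 2 genes had lower values. In the authors' background-subtracted table, the Serpinb2 intensity in 5aza-dC was 8.53% of that in mock, and in recovery 11.4%. Recovery was 0.44 above 5aza-dC in the deposited columns. The smallest gap between single arrays of these groups was 0.18, less than the 0.39 between both 5aza-dC arrays, so this order is not clear of the spread.

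**Figure D2:**
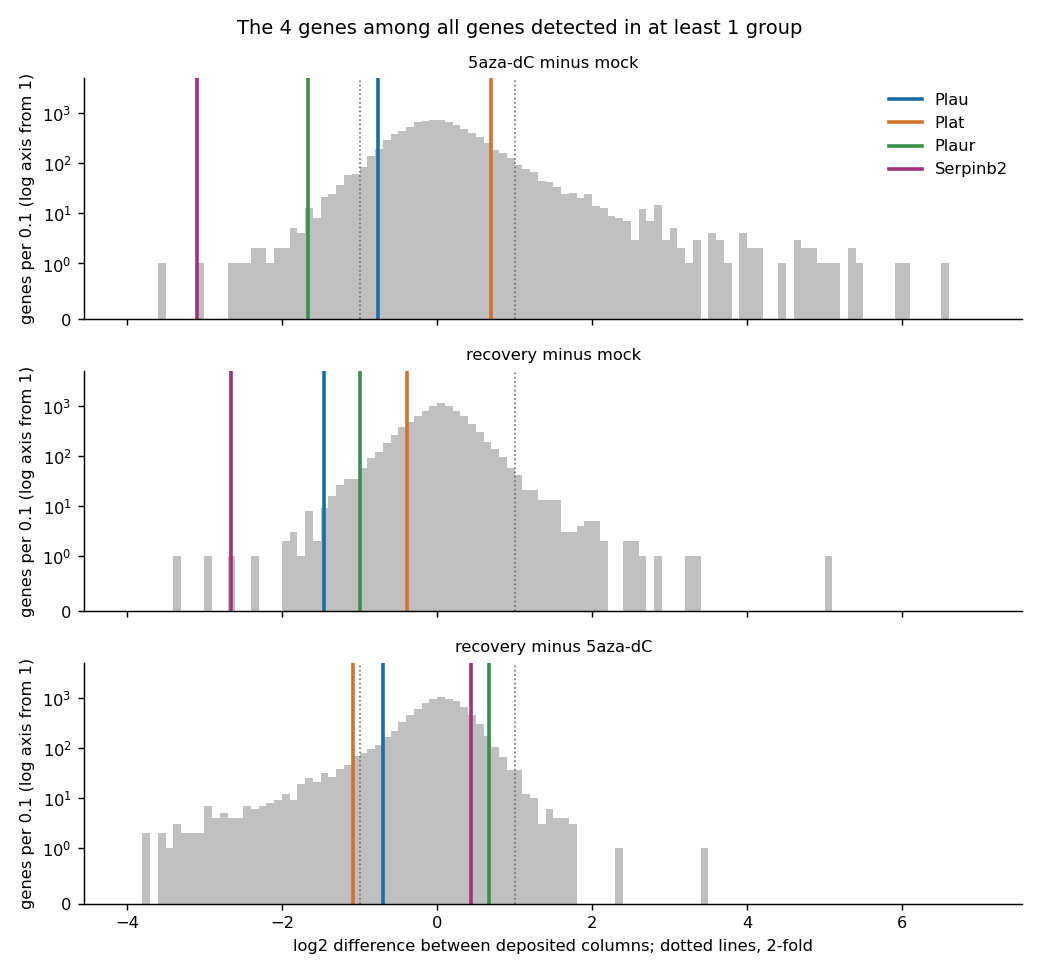
Number of genes (vertical axis, logarithmic from 1) per 0.1 of log2 difference (horizontal axis) between deposited columns, for the 8982 detected genes in each comparison, with coloured lines at Plau, Plat, Plaur and Serpinb2 and dotted lines at 2-fold. Serpinb2 lies at the far left in both comparisons with mock (-3.09 and -2.65), while in recovery minus 5aza-dC all 4 lie between -1.09 and 0.67.

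Outside fibroblasts, Serpinb2 is known from macrophages and keratinocytes, and Plat from endothelium. Among 7 keratinocyte or epithelial markers, 2 were detected in mock, 4 under 5aza-dC and 3 in recovery, and their summed signals in that order were 518.0, 2494 and 644.4. The keratin genes Krt14 and Krt8 rose in 5aza-dC by 4.37 ± 0.11 and 4.03 ± 0.10 against mock, and Krt18, detected there alone, rose at least 2.66-fold (limma, adjusted p = 8.47e-07, 8.49e-07 and 1.00e-04). Trp63, a regulator of epidermal cells, was detected in 5aza-dC and recovery but not in mock. Cdh1, Epcam and Krt5 were detected in no group. Over the 6 macrophage markers the sums were 384.6, 372.5 and 356.0 in the same order of groups. Of 5 endothelial markers, Pecam1 was detected in 5aza-dC and none in the other groups, with summed signals of 327.5, 327.9 and 307.7. The part of these markers in the levels of the 4 genes was not tested. In bulk RNA, fewer cells expressing a gene and less RNA per cell cannot be told apart.

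Serpinb2 sits among related serpin genes on mouse chromosome 1, but its neighbours gave no detectable signal. None of the 3 nearest measured genes on each side (Serpinb3c, Serpinb11, Serpinb7, Serpinb10, Serpinb8 and the cadherin Cdh7) was detected in any group, with detection p-values of 0.213 or more. All 6 neighbours of Plau were detected, and Vcl, which codes for the adhesion protein vinculin, fell next to it in 5aza-dC by 0.85 ± 0.08 and in recovery by 0.71 ± 0.08 against mock (limma log2 difference ± SE on the solved arrays, n = 2 per group; adjusted p = 2.34e-04 and 0.00142, Benjamini-Hochberg). The recovery call of Vcl was lost with arrays scaled to the median over all probes (limma, adjusted p = 0.0581). Of the other neighbours of Plau, Adk fell by 0.59 ± 0.09 in 5aza-dC against mock (limma, adjusted p = 0.00157). In recovery Adk did not pass (0.15 ± 0.09, limma, adjusted p = 0.214). Zswim8 fell in recovery against mock by 0.34 ± 0.11 (limma, adjusted p = 0.0496). It was not detected in recovery (detection p-value 0.037), and the deposited columns put the fall at 1.12-fold or more. Around Plat, 4 of 6 neighbours were detected, and Ap3m2, a subunit of a vesicle coat adaptor, rose in 5aza-dC by 1.18 ± 0.09 and in recovery by 0.52 ± 0.09 against mock (limma, adjusted p = 7.07e-05 and 0.00488), whereas Plat was lower than mock in recovery. Polb, also beside Plat, differed from mock by 0.09 ± 0.09 in 5aza-dC and fell in recovery by 0.39 ± 0.09 (limma, adjusted p = 0.395 and 0.0124). With arrays scaled to the median over all probes the recovery call of Ap3m2 was lost too (limma, adjusted p = 0.834). For Adk, Zswim8 and Polb the calls under this scaling are not reported here. Around Plaur, 3 of 6 neighbours were detected, and 2 of them fell. By limma 27.1% of all detected genes fell in 5aza-dC and 18.5% in recovery, both against mock, so nothing is read from this count. The potassium channel gene Kcnn4 fell by 0.76 ± 0.10 in 5aza-dC and by 0.50 ± 0.10 in recovery against mock (limma, adjusted p = 9.95e-04 and 0.00987). The zinc finger gene Zfp428 fell by 0.65 ± 0.09 and by 0.34 ± 0.09 (limma, adjusted p = 0.00134 and 0.0271). All 4 calls were lost with that scaling, where adjusted p by limma was 0.116 to 0.348. These neighbours were singled out after their values had been seen.

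**Figure D3:**
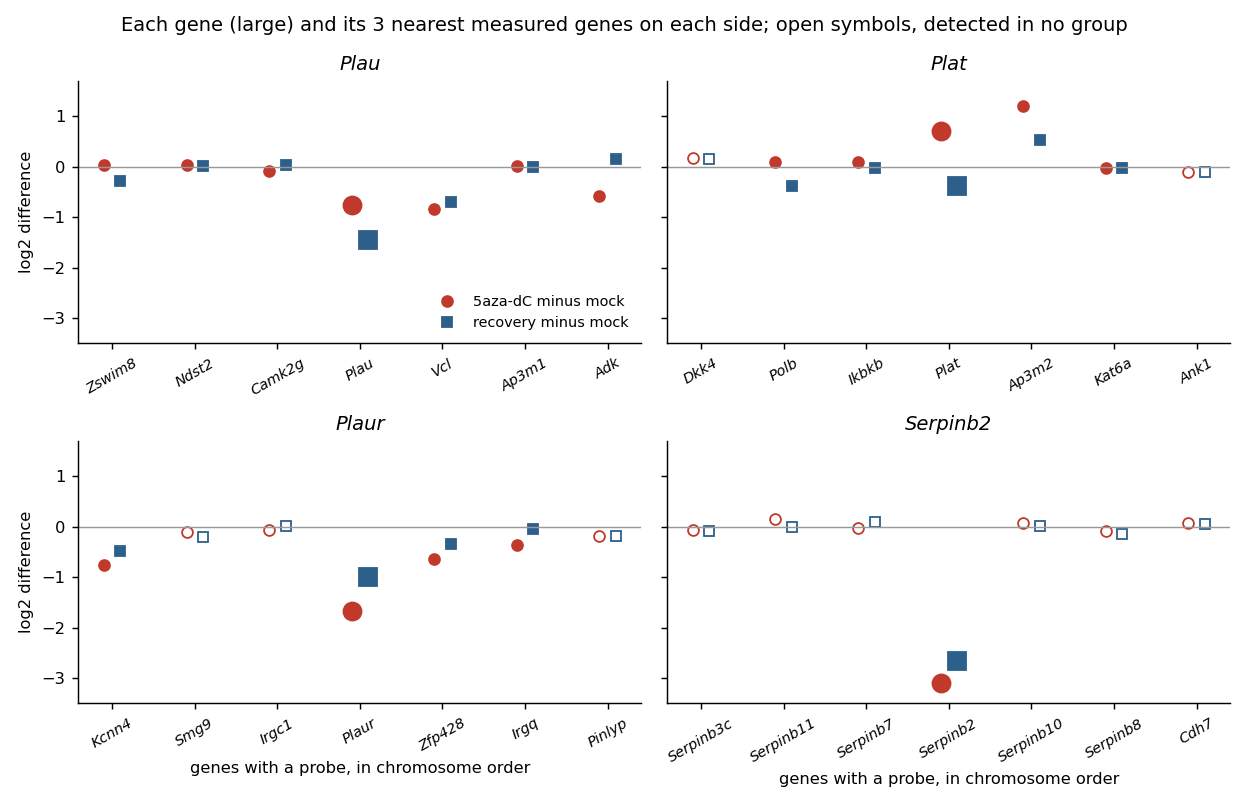
Log2 difference (vertical axis) of 5aza-dC minus mock (circles) and recovery minus mock (squares) for Plau, Plat, Plaur and Serpinb2 (large symbols) and the 3 nearest genes with a probe on each side, in chromosome order. Open symbols mark genes detected in no group. Serpinb2 stands alone at -3.09 and -2.65 among undetected neighbours.

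Of 56 serpin genes with a probe, 6 were detected. Beside Serpinb2, 1 of them reached 2-fold: Serping1, the inhibitor of complement C1, was detected in 5aza-dC alone. It rose there at least 1.77-fold against mock and lay at least 1.61-fold above recovery (limma, adjusted p = 6.54e-04 and 0.00113). Each bound sets the level against the higher of the dim group's own value and its lowest detected probe, on the scale with offset 16. With an offset of 50 both differences of Serping1 were below 2-fold (1.49-fold and 1.48-fold), and without background correction they were 1.47-fold each. Serpinf1, which codes for the secreted factor PEDF, rose in recovery by 0.38 ± 0.09 against mock and by 0.59 ± 0.09 against 5aza-dC (limma, adjusted p = 0.014 and 0.00236). Both calls of Serpinf1 were lost with arrays scaled to the median over all probes (limma differences 0.01 and 0.44). Serpinh1, a collagen chaperone, differed from mock by -0.18 ± 0.08 in 5aza-dC and 0.13 ± 0.08 in recovery, and neither passed (limma, adjusted p = 0.0781 and 0.197). In recovery Serpinh1 was 0.32 ± 0.08 above 5aza-dC (limma, adjusted p = 0.0153), a call lost with that scaling (limma, adjusted p = 0.97). Serpinb6c was detected in 5aza-dC alone, at a level of 4.75 near background. It was lower in recovery than in 5aza-dC by 0.31 ± 0.07 (limma, adjusted p = 0.011).

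The remaining plasminogen system was examined through a list of 54 genes, of which 50 were measured and 26 detected. None of the 7 further proteases, plasminogen itself (Plg) among them, was detected. By limma on the solved arrays 9 of the 26 rose and 11 fell in 5aza-dC against mock (34.6% and 42.3%, with backgrounds of 30.1% and 27.1% of all detected genes). In recovery against mock 6 rose and 8 fell (backgrounds 22.2% and 18.5%), and in recovery against 5aza-dC 12 rose and 5 fell (backgrounds 21.7% and 21.0%). The median differences of the list were -0.18, 0.01 and 0.12 in these 3 comparisons, against 0.01, 0.03 and 0.02 for all detected genes. On the deposited columns, 1 gene was at least 2-fold higher and 5 lower in 5aza-dC than in mock (backgrounds 6.55% and 2.77%), 1 higher and 1 lower in recovery than in mock (1.69% and 1.55%), and 2 higher and 2 lower in recovery than in 5aza-dC (0.891% and 4.35%). With arrays scaled to the median over all probes, whose median signal is close to background, the limma counts were 1 higher and 6 lower, 0 higher and 2 lower, and 0 higher and 2 lower, so that no gene of the list rose in either comparison of recovery. Without recovery array 1, 2 genes rose and 7 fell in recovery against mock, and without recovery array 2 these counts were 3 and 7. Of the genes named below, that scaling left past the threshold Lrp8, Itga5, Mmp9, Nid1, Vegfa and Thbs1 in 5aza-dC against mock, S100a10 and Vegfa in recovery against mock, and Vldlr and Mmp9 in recovery against 5aza-dC.

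Among receptors and binding proteins (12 detected), Lrp8, a lipoprotein receptor, fell by 1.48 ± 0.09 in 5aza-dC and by 0.68 ± 0.09 in recovery, both against mock (limma). Itga5, the alpha chain of a fibronectin receptor, fell by 1.41 ± 0.09 and by 0.61 ± 0.09. The course of both genes, lowest in 5aza-dC and intermediate in recovery, has the order of Plaur. S100a10, which codes for a partner of annexin A2 that binds plasminogen, fell by 0.65 ± 0.20 in 5aza-dC and by 1.19 ± 0.20 in recovery, both against mock. Its further difference of -0.54 ± 0.20 between recovery and 5aza-dC, which has the sign seen for Plau, did not pass (limma, adjusted p = 0.0634). Vldlr, a receptor that takes up protease and serpin complexes, rose by 0.79 ± 0.12 in 5aza-dC and fell by 0.54 ± 0.12 in recovery, the order of Plat. Adjusted p-values of these 8 differences ran from 2.57e-05 for Lrp8 in 5aza-dC to 0.0266 for S100a10 in 5aza-dC (limma with Benjamini-Hochberg adjustment, n = 2 arrays per group). The 1 inhibitor detected besides the members, the intracellular serpin Serpinb6a, differed by -0.03 ± 0.08 in 5aza-dC and rose by 0.28 ± 0.08 in recovery (limma, adjusted p = 0.0319), a sign that turned when columns were scaled to the median over all probes (-0.11).

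Substrates and downstream genes (13 detected) moved both ways. The gelatinase gene Mmp9 rose by 1.28 ± 0.09 in 5aza-dC against mock, and fell to an undetected level in recovery, at least 4.07-fold below 5aza-dC on the scale with offset 16. That difference was 2.43-fold with an offset of 50 and 2.23-fold without background correction. Mmp2, the other gelatinase, rose by 0.88 ± 0.08 in 5aza-dC and by 1.07 ± 0.08 in recovery, both against mock. Nid1, a basement membrane linker, fell by 1.15 ± 0.09 in 5aza-dC, and its level in recovery was 7.44 against 7.43 in mock. Vegfa and Thbs1, an angiogenic growth factor and a matricellular protein, fell in 5aza-dC by 1.08 ± 0.08 and 1.03 ± 0.08. In recovery both were still below mock, by 0.81 ± 0.08 and 0.65 ± 0.08. Bdnf, a neurotrophin whose precursor plasmin can cleave, fell by 0.84 ± 0.09 in 5aza-dC and was 1.21 ± 0.09 higher in recovery than in 5aza-dC. These differences had adjusted p-values from 1.51e-05 (Mmp9, recovery against 5aza-dC) to 0.00142 (Thbs1, recovery against mock) by limma with Benjamini-Hochberg adjustment.

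**Figure D4:**
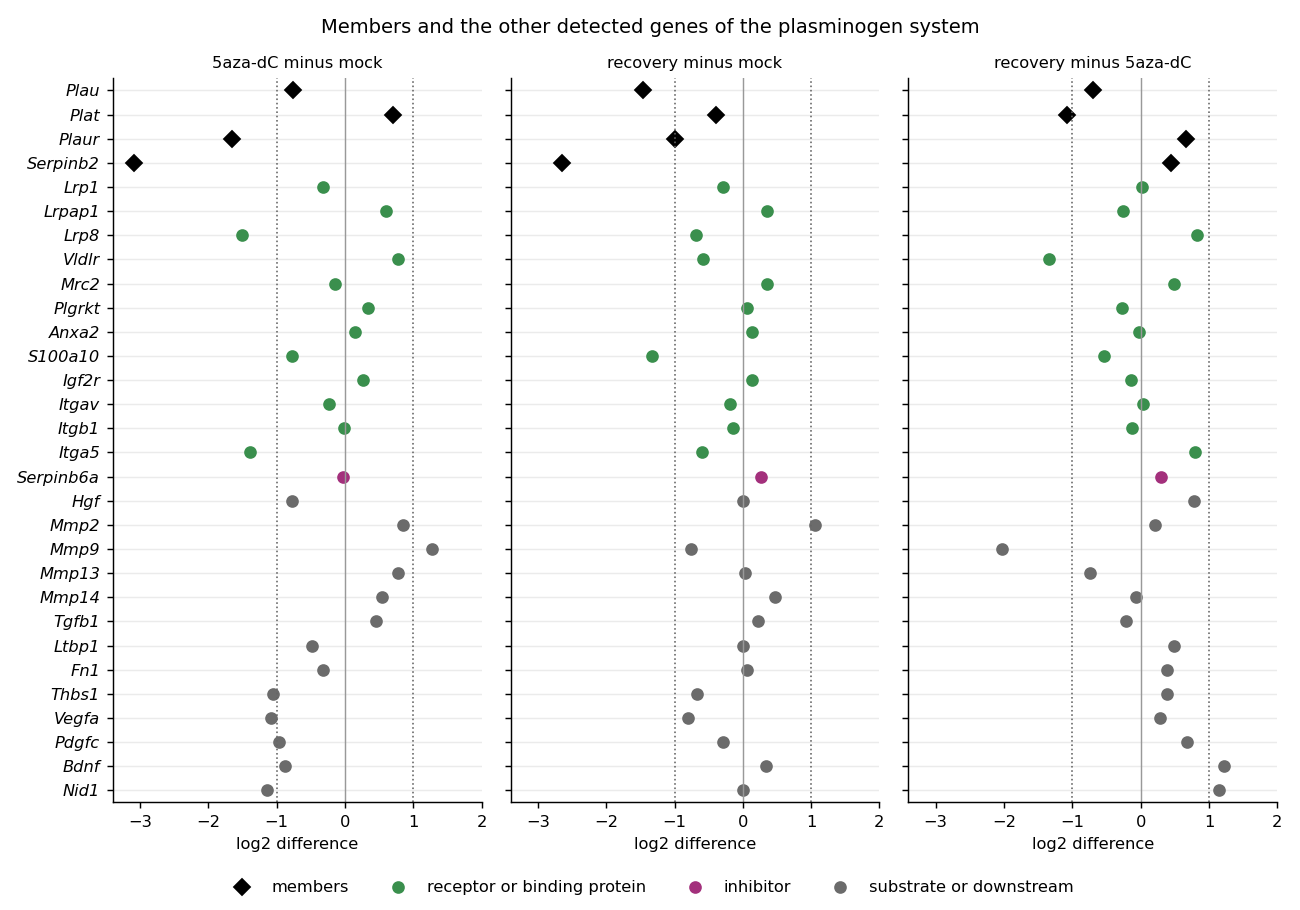
Log2 difference (horizontal axis) between deposited columns for the 4 members (black diamonds) and the 26 other detected genes of the plasminogen system (circles, coloured by role), 1 panel per comparison, with dotted lines at 2-fold. Serpinb2 lies furthest left in both comparisons with mock, and Mmp9 (-2.03) in recovery minus 5aza-dC.

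The genes most like each member were found as those with the smallest Euclidean distance between log2 levels in the 3 groups, each gene centred on its own mean. With 3 groups, 2 of which are compared with the same mock column, many genes can lie close. Within a distance of 0.5 there were 175 genes for Plau, 766 for Plat and 187 for Plaur, but none for Serpinb2. Nearest to Plau were Ccnh (distance 0.07), which codes for cyclin H, S100a10 (0.12) and the lymphatic growth factor gene Vegfc (0.13). Nearest to Plat were Zc3h12a (0.03), Ooep (0.06) and Fbxl13 (0.07), with levels of 4.24 to 6.08 near background. The tRNA methyltransferase subunit gene Trmt61a (0.03), Bcl7a (0.06) and Lrrc15 (0.08) were nearest to Plaur. For Serpinb2 the nearest were Hbegf (0.66), which codes for an EGF family ligand, Hmga2-ps1 (0.76) and Lce1f (0.79). Hbegf levels were 10.31 in mock, 7.98 under 5aza-dC and 8.49 in recovery, so its difference of -2.32 between 5aza-dC and mock was smaller than that of Serpinb2.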

How the data were processed

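The members and gene lists were chosen with earlier results of these data known. The analysis used 2 deposited tables. The first gives each probe's non-normalized intensity and detection p-value in every group, per the file headers, and the second deposited table holds intensity after background subtraction and scaling by the authors, read from its values (mean 224.5 in each column). Per the labels' protocols, TRIZOL was used for total RNA and a TotalPrep kit for its amplification, with biotin as label. The array software was not given in the sources used here. There were 0 columns of other samples.

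Of 45281 probes, 34885 had 1 gene symbol, 18 had several and 10378 were not listed. Gene symbols come from the platform annotation, checked through Entrez numbers against RefSeq genes (34807 probes matched, 0 genes renamed). A gene was represented by its probe with the highest mean level. Columns were normalized with neqc in limma 3.58.1 (R 4.3.3), which estimates background through the detection p-values, adds an offset of 16, applies quantile normalization and takes log2.

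The 2 arrays behind a column were solved from both tables by finding the 2 scale factors for which the detection p-value is a sum of functions of each array's signal. The root mean square misfit, with large residuals capped, was 4.19e-04 to 4.82e-04 over the groups. The cap was reached by 1 probe in recovery and by 0 in the other groups. If a column were 1 array, the standard deviation of the residuals, without a cap, was 0.0287 to 0.0379. The correlation across probes between both arrays of a group was 0.984 in mock and 0.998 in the others. On a simulated pair with the scale factors solved for 5aza-dC, signals from 20 to 100 came back with a median error of 0.00203%. Signals above 100 came back with 0.000368%. For a simulated pair with scale factors of 1.25 and 0.75 these errors were 0.0219% and 0.00668%. The solved arrays were normalized alike and fitted with lmFit and eBayes over 8982 genes (Benjamini-Hochberg at 0.05 within a comparison). For 5aza-dC against mock, limma recovered 90% of simulated 1.0 changes and 54% of 0.5 changes (log2) over 8982 genes, with 11 false calls. No p-value is given for the members. The p-values reflect the spread of these arrays and nothing wider.

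Promoter sequences and neighbour order come from RefSeq (GRCm38.p6), and 2 of the 4 measured members had a promoter entry. The files name no genome build. Named genes are the members, the 3 genes most like each, the detected plasminogen system genes at least 2-fold apart in any comparison (or the largest difference of a role), and serpin genes at least 2-fold apart. Beyond that rule, genomic neighbours, cell type markers and the detected serpins Serpinf1, Serpinh1 and Serpinb6c, all 3 below 2-fold, were also named. The alternatives tried were an offset of 50, no background correction, scaling to the median of all probes, the series matrix values, a detection p-value below 0.05, no detection filter, the mean of a gene's probes, and leaving out each array.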

Additional observations from a re-analysis of the deposited data

How the results depend on the processing

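All 12 differences of the 4 members (3 comparisons each) kept their sign under each of 11 alternatives. Of these, the 2 detection settings act on the calls alone and could not move a difference. The mean of a gene's probes could move only Plat, the only member with more than 1 probe. Leaving out an array could change the size of a difference but not its sign, since the arrays of the groups did not overlap for any member. The kept signs under these settings therefore carry no information. Serpinb2 ran from -3.55 to -2.22 for 5aza-dC minus mock and from -3.13 to -1.99 for recovery minus mock. The count of members at least 2-fold apart stayed within 1.5 times, except for recovery minus 5aza-dC, where it was 0 in place of 1 without background correction and with the mean of all probes of a gene. Of the other plasminogen system genes, 6, 2 and 4 were at least 2-fold apart in 5aza-dC minus mock, recovery minus mock and recovery minus 5aza-dC. These counts were 2, 1 and 2 with an offset of 50 and 2, 1 and 2 without background correction. The mean of all probes gave 2 for recovery minus 5aza-dC. The limma counts of 20, 14 and 17 (9 higher and 11 lower, 6 and 8, and 12 and 5) became 7, 2 and 2 (1 higher and 6 lower, 0 and 2, and 0 and 2) when arrays were scaled to the median over all probes, which also moved the median difference of all genes to -0.15, -0.28 and -0.16 and gave 4 genes at least 2-fold apart in recovery minus mock. Leaving out each array in turn gave 15 to 22, 9 to 15 and 10 to 19 genes. The lowest counts for recovery minus mock and recovery minus 5aza-dC came without recovery array 1 (9, of which 2 higher) and without recovery array 2 (10, of which 7 higher), and 11 were left without either 5aza-dC array in the latter. The causes were not tested. No paired analysis was possible because the labels give 1 sample per group. Signal over background limits Serpinb2 most, whose level in 5aza-dC was 5.38.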
